A study of Mus musculus with 24 samples.

Results

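The genes described here encode the proximal signalling chain of the B cell receptor, from its signalling subunits to the enzymes and scaffolds at the membrane. They were taken by symbol from the deposited count table: the receptor chains Cd79a and Cd79b, the kinases Syk, Lyn, Blk and Btk, and the adaptors and phospholipase Blnk, Plcg2, Bank1 and Pik3ap1. All 10 were among the 11140 genes of the table, and all 10 were among the 11020 genes that passed the filter on low counts and were tested. The rule is a list of names that uses no measured value, but the list was drawn up with earlier results of these data known.

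The libraries were made from RNA of B lymphoma cells that had been purified from spleen. The mice were C57BL/6 and all carried a Bcl6 transgene. The T cell sufficient group held 12 lymphomas of genotype Bcl6Tg/+. The T cell deficient group held 11 lymphomas of genotype Bcl6Tg/+CD3Epsilon-/-, which carry the same transgene and lack a chain of the T cell receptor complex that T cell development needs. The comparison asks how B lymphomas of mice lacking T cells differ from those of mice that have them. The sources used here do not give the ages of the mice or the promoter of the transgene, and the labels number the lymphomas without naming the animals, so p-values measure the spread between these samples. Batch 1 held 7 sufficient and 5 deficient libraries and batch 2 held 5 and 6.

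The B cell receptor is a membrane immunoglobulin joined to a heterodimer of Cd79a and Cd79b, whose cytoplasmic tails hold the tyrosines that start the signal. Src family kinases such as Lyn and Blk phosphorylate these tyrosines, Syk docks on them and phosphorylates the adaptor Blnk, and Blnk brings Btk to its substrate Plcg2, which releases calcium and activates protein kinase C. Germinal centre B cells, in which the repressor Bcl6 is high, are known for a dampened response of this receptor.

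Total counts ran from 7.58 to 30.6 M per sufficient library and from 11.8 to 28.1 M per deficient library, and the lowest count of any of the 10 genes in any library was 40. Counts per 1 M counts (CPM) are scaled between libraries by the trimmed mean of M values (TMM). The label of B lymphoma cells was checked on 8 pan-B markers other than Cd79a and Cd79b: none was at 0 in any library, and their summed level ran from 3552 to 8084 CPM in sufficient and from 3026 to 7017 CPM in deficient libraries. Of 14 T and NK cell markers, 6 were in the table, with a summed level of 4.90 to 78.0 CPM in sufficient and 2.04 to 93.3 CPM in deficient libraries. The groups were uneven in sex-linked genes. Xist was above 20 CPM in 7 of 12 sufficient and 3 of 11 deficient libraries, and the Y-linked Ddx3y in 6 and 8. In 3 sufficient libraries, 9, 10 and 11, both genes were above 20 CPM, which no deficient library showed. Without these 3 libraries the same 5 of the 10 genes were called as with them, with log2 fold changes of -0.73 for Cd79a, -0.69 for Cd79b, -0.99 for Syk, -0.62 for Lyn and -2.97 for Bank1. In bulk RNA, fewer cells of a type and less RNA per cell cannot be told apart.

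Windows before the transcription starts were available from RefSeq (GRCm38.p6) for 7 of the 10 genes, as 8 windows from 250 bases before to 50 bases after a start. They were searched on both strands for an E box (CAGGTG), a PU.1 type motif (GAGGAA), an EBF1 type motif (CCCNNGGG), the octamer ATTTGCAT and a BCL6 type motif (TTCCTAGA). The parts before the start that lie outside annotated exons are shown for 3 genes whose level fell in T cell deficient lymphomas, Bank1, Cd79a and Syk, and for 1 that did not pass the test, Plcg2, because all of them hold the same E box. The second start of Syk lies inside the gene, after the start of its longer transcripts. Each is given 5′ to 3′ on the strand of its gene, with motif matches in capitals: the E box as CAGGTG or its complement CACCTG, the EBF1 type match CCCCTGGG in Bank1, and the PU.1 type match TTCCTC in Cd79a.
Bank1 (chr3:136326067-136326316, minus strand): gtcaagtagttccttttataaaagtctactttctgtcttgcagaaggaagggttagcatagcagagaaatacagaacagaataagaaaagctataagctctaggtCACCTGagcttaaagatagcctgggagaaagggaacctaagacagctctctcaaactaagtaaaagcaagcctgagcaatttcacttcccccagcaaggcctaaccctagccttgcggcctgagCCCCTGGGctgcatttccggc
Cd79a (chr7:24897247-24897380, plus strand): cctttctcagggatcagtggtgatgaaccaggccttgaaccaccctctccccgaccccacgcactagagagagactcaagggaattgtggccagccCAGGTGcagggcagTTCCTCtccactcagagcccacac
Syk, second start (chr13:52596632-52596852, plus strand): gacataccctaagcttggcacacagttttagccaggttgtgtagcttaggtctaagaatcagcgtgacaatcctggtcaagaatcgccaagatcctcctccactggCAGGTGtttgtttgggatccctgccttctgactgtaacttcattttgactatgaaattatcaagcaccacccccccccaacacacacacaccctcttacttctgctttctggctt
Plcg2 (chr8:117498025-117498274, plus strand): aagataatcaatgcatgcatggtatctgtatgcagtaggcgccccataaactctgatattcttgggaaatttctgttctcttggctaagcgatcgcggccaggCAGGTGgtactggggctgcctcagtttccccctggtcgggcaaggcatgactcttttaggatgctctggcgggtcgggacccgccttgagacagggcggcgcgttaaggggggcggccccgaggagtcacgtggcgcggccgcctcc
Positions were counted from the RefSeq start to the first base of the match, and depend on the start used. The RefSeq start of Cd79a, at 24897497, lies inside its annotated gene, which begins at 24897381. The E box stood at position -145 in Bank1, -154 in Cd79a, -144 at the second start of Syk and -147 in Plcg2. In the windows not shown it stood elsewhere, at -200 at the first start of Syk, -160 in Blnk and -87 in Pik3ap1. It was present in 6 of the 7 genes, all but Btk, against 20.2% of the 32851 mouse promoter windows of the same length. The PU.1 type motif was present in 4 of the 7 (Btk, Cd79a, Pik3ap1 and Syk; 28.3% of all windows), the EBF1 type motif in Bank1 (13.7%), the octamer in Blnk (1.74%) and the BCL6 type motif in none of the 7 (1.32%). The E box was present both in genes that fell and in genes that did not pass the test, so in these windows it did not separate them.

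Of the 10 genes, 5 were lower in T cell deficient lymphomas at an adjusted p under 0.05, and 5 did not pass the test. The 5 were both receptor chains, the kinases Syk and Lyn, and the scaffold Bank1. Across all 11020 genes tested, 11.7% were called lower and 10.6% were called higher, and none of the 10 was called higher. The median log2 fold change of the 10 was -0.35, against -0.01 for all genes tested. Differences were tested with edgeR's quasi-likelihood test with batch as a term, and p-values were adjusted over all genes by Benjamini-Hochberg.

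**Figure D1:**
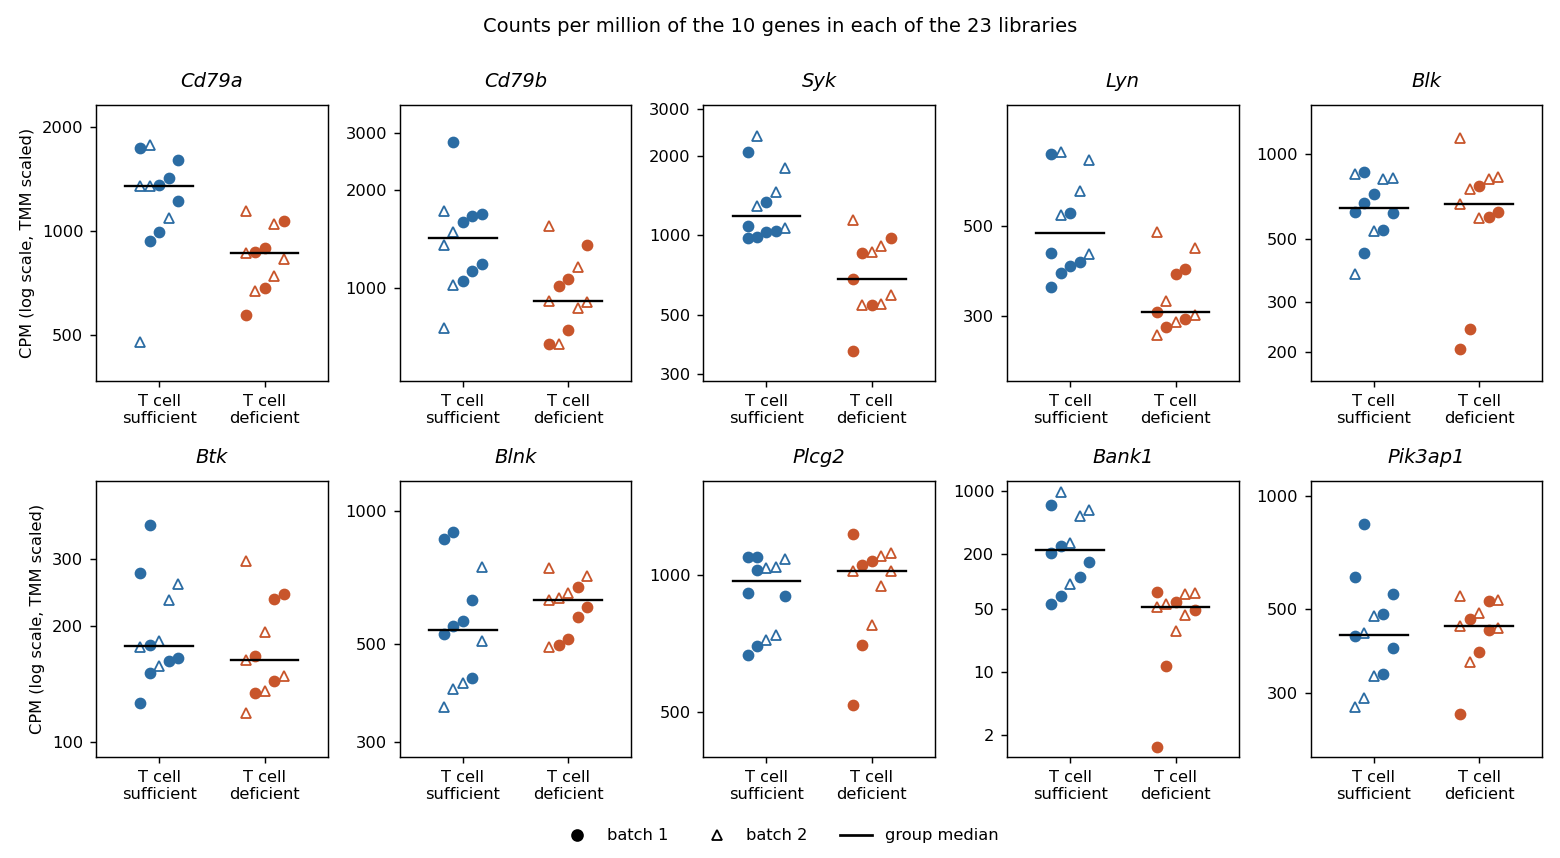
CPM of the 10 genes on log axes, 1 panel per gene; points are libraries (filled circles, batch 1; open triangles, batch 2), in 2 columns for 12 T cell sufficient and 11 T cell deficient lymphomas, and bars are group medians. The columns are shifted for Syk, Lyn and Bank1, where 9, 7 and 7 deficient libraries lie below every sufficient one. They are also shifted for Cd79a and Cd79b, where 0 and 3 deficient libraries lie below every sufficient one and 8 and 5 sufficient libraries lie above every deficient one. The columns overlap widely for Blk, Btk, Blnk, Plcg2 and Pik3ap1.

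Cd79a (chromosome 7, 24897381 to 24902197, plus strand, GRCm38) encodes the Ig-alpha chain of the receptor. In sufficient libraries its lowest value was 479 CPM, its median 1353 and its highest 1781, and in deficient libraries these were 572, 864 and 1146 CPM. Of 12 sufficient libraries, 8 lay above every deficient one, while sufficient lymphoma 11 lay below all of them. The log2 fold change was -0.58 ± 0.17 SE (edgeR adjusted p = 0.0195), a level 1.49-fold lower without T cells. Cd79a was not called in either batch alone (adjusted p = 0.142 in batch 1 and 0.293 in batch 2). Sufficient lymphoma 11 also had the highest summed level of 18 monocyte and macrophage markers, 2377 CPM, whose part in its low Cd79a was not tested.

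Cd79b (chromosome 11, 106311341 to 106314762, minus strand) encodes the Ig-beta chain. Its lowest, median and highest values were 756, 1427 and 2807 CPM in sufficient libraries and 673, 909.8 and 1554 CPM in deficient ones. The groups overlapped more than for Cd79a, with 3 deficient libraries below every sufficient one and 5 sufficient libraries above every deficient one. The log2 fold change was -0.53 ± 0.19 SE (adjusted p = 0.0468). This call was close to the threshold: it was lost, with adjusted p-values up to 0.0924, without any single one of 15 libraries (sufficient 2, 3, 6, 7, 8, 10 and 12, and deficient 2, 3, 4, 5, 7, 8, 9 and 10). It was also lost without scaling beyond the library total (adjusted p = 0.0764) and in counts thinned to the smallest library (adjusted p = 0.0522).

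The ratio of Cd79b to Cd79a within a library tests whether the 2 chains of the heterodimer moved apart, and needs no scaling between libraries. The log2 ratio of counts averaged 0.18 ± 0.36 (SD, n = 12) in sufficient and 0.20 ± 0.26 (SD, n = 11) in deficient lymphomas. The difference of 0.01 was smaller than the spread between libraries (permutation within batches, two-sided, p = 0.912).

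Syk (chromosome 13, 52583173 to 52648792, plus strand) encodes the kinase that docks on the phosphorylated receptor tails. Its lowest, median and highest values were 977, 1187 and 2383 CPM in sufficient libraries and 366, 686 and 1140.0 CPM in deficient ones. The groups overlapped in part: 9 of 11 deficient libraries lay below every sufficient library, and 6 of 12 sufficient libraries lay above every deficient one. Of all 11020 genes tested, 8 lower and 10 higher genes had no overlap between the groups, and Syk was not among them. The log2 fold change was -0.94 ± 0.19 SE (adjusted p = 0.00175), a level 1.91-fold lower. The highest values belonged to sufficient lymphomas 8 and 7, at 2383 and 2074 CPM, and the lowest to deficient lymphoma 9.

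Lyn (chromosome 4, 3678115 to 3813122, plus strand) encodes the Src family kinase that both starts the signal and feeds inhibitory receptors. Its lowest, median and highest values were 355, 480.3 and 759 CPM in sufficient libraries and 270.5, 307 and 484 CPM in deficient ones. The lowest sufficient library exceeded 7 of the 11 deficient ones, and the highest deficient library was exceeded by 6 of the 12 sufficient ones. Lyn fell by 0.64 ± 0.14 SE on the log2 scale (adjusted p = 0.00341), a level 1.55-fold lower.

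Blk (chromosome 14, 63372836 to 63417037, minus strand), a Src family kinase largely restricted to B cells, did not pass the test. For Blk, the lowest, median and highest values were 377, 648 and 866 CPM in sufficient libraries and 204, 668 and 1148 CPM in deficient ones. Deficient libraries lay on both sides of the sufficient ones: deficient lymphomas 7 and 9, at 241 and 204 CPM, were below every sufficient library, and deficient lymphoma 6 was above all of them. In log2, deficient over sufficient, the change was -0.09 ± 0.21 SE (adjusted p = 0.792).

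Btk (chromosome X, 134542336 to 134583570, minus strand) encodes the Tec family kinase that phosphorylates Plcg2. The lowest, median and highest values of Btk were 126, 178 and 368 CPM in sufficient libraries and 119, 164 and 296 CPM in deficient ones, and the ranges overlapped almost fully. In log2, deficient over sufficient, the change was -0.17 ± 0.18 SE (adjusted p = 0.531).

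Kinases of the same chain were then compared within each library as ratios of counts, with 3 ratios in the family including that of the receptor chains. The log2 ratio of Btk to Syk was -2.76 ± 0.35 (SD, n = 12) in sufficient and -2.01 ± 0.57 (SD, n = 11) in deficient lymphomas, and 8 of 11 deficient libraries lay above every sufficient one. The difference of group means over both batches, not itself adjusted for batch, was 0.75 (permutation within batches, two-sided, p = 0.00045, adjusted over 3 ratios 0.00135). Relative to Btk, Syk was thus lower without T cells. Within batches the difference was 0.77 in batch 1 and 0.82 in batch 2. The log2 ratio of Blk to Lyn was 0.33 ± 0.42 (SD, n = 12) in sufficient and 0.82 ± 0.64 (SD, n = 11) in deficient lymphomas. Its difference over both batches, taken in the same way, was 0.49 and did not pass after adjustment (permutation p = 0.042, adjusted 0.063). Within batches it was -0.10 in batch 1 and 1.07 in batch 2. The difference over both batches passed without sufficient lymphoma 6 (adjusted p = 0.0472), sufficient lymphoma 9 (adjusted p = 0.0434), deficient lymphoma 7 (adjusted p = 0.0135) or deficient lymphoma 9 (adjusted p = 0.00904).

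Blnk (chromosome 19, 40928927 to 40994535, minus strand) encodes the adaptor that Syk phosphorylates. Blnk had lowest, median and highest values of 359.6, 537 and 900.3 CPM in sufficient libraries and 491, 629 and 743 CPM in deficient ones. The deficient values lay inside the sufficient range, with 4 sufficient libraries below all of them and 3 above. The fitted log2 fold change was 0.12 ± 0.15 SE (adjusted p = 0.575).

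Plcg2 (chromosome 8, 117498291 to 117635142, plus strand) encodes the phospholipase that the Blnk complex activates. From lowest over median to highest, Plcg2 stood at 669, 966 and 1095 CPM in sufficient libraries and 519, 1018 and 1229 CPM in deficient ones. The lowest value again belonged to deficient lymphoma 9, and 3 deficient libraries lay above every sufficient one. The fitted log2 fold change was 0.05 ± 0.13 SE (adjusted p = 0.796), the smallest standard error of the 10 genes.

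Bank1 (chromosome 3, 136053363 to 136326066, minus strand) encodes a B cell scaffold protein that binds Lyn. Bank1 had lowest, median and highest values of 56.4, 225 and 990.5 CPM in sufficient libraries and 1.46, 51.9 and 75.7 CPM in deficient ones. The groups overlapped in part: 10 of 12 sufficient libraries exceeded every deficient library, and 7 of 11 deficient libraries were under the lowest sufficient one. In log2, deficient over sufficient, the change was -2.84 ± 0.53 SE (adjusted p = 0.00117), a level 7.18-fold lower and the largest change of the 10 genes. Bank1 also had the widest spread: sufficient lymphoma 8 was highest at 990.5 CPM and sufficient lymphoma 7 next at 709.9 CPM, the same libraries that led for Syk and Lyn. The 40 counts of deficient lymphoma 9 were the lowest of any of the 10 genes in any library, and no single library ended the call when left out (adjusted p up to 0.00275).

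Pik3ap1 (chromosome 19, 41272377 to 41385102, minus strand) encodes BCAP, an adaptor that recruits phosphoinositide 3-kinase. Its lowest, median and highest values were 275.5, 428 and 839 CPM in sufficient libraries and 264, 451 and 543 CPM in deficient ones, with 1 deficient library below and 3 sufficient libraries above all of the other group. The fitted log2 fold change was 0.02 ± 0.17 SE (adjusted p = 0.944).

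In the authors' deposited table the same 5 genes had adjusted p-values under 0.05. The authors' deposited table gives log2 fold changes of -0.53 for Cd79a, -0.51 for Cd79b, -0.95 for Syk, -0.62 for Lyn and -2.89 for Bank1, and adjusted p-values from 0.432 to 0.877 for the other 5.

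**Figure D2:**
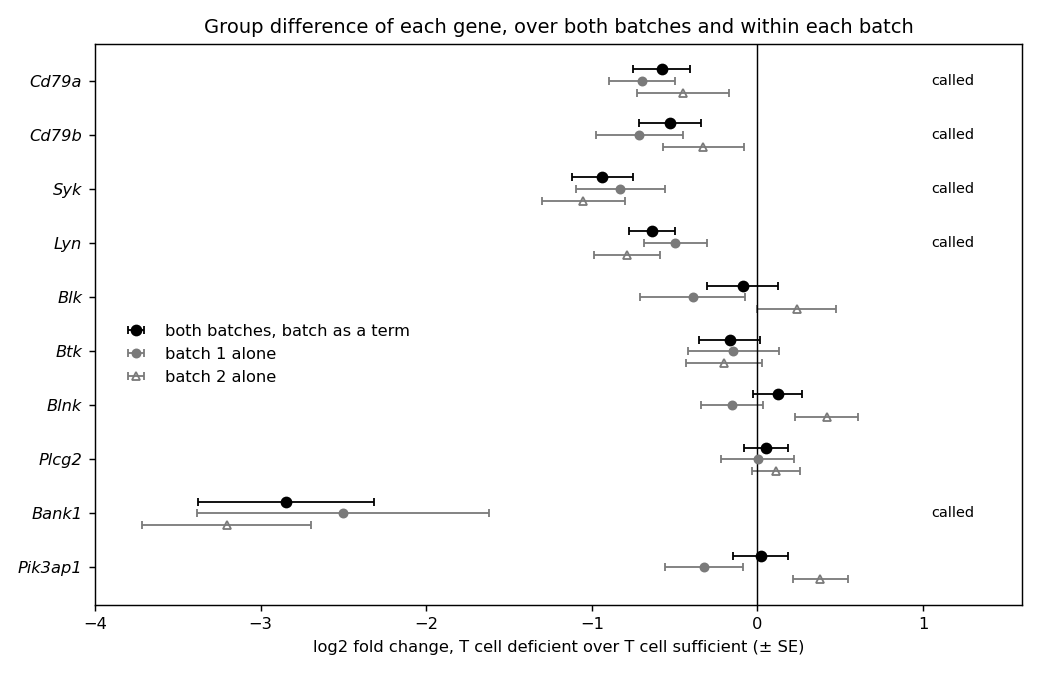
Log2 fold change of T cell deficient over T cell sufficient lymphomas (x axis; bars, SE) for each of the 10 genes, over both batches (black) and within batch 1 (filled grey circles) and batch 2 (open grey triangles); the word called marks adjusted p under 0.05 over both batches. Syk, Lyn, Bank1, Cd79a and Cd79b lie below 0 in both batches, while Blk, Blnk and Pik3ap1 lie below 0 in batch 1 and above 0 in batch 2.

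Within batches the directions of the 5 called genes were the same. The log2 fold changes in batch 1 and batch 2 were -0.83 and -1.05 for Syk, -0.49 and -0.79 for Lyn, -2.50 and -3.21 for Bank1, -0.70 and -0.45 for Cd79a, and -0.71 and -0.33 for Cd79b. In batch 2 alone the call was kept for Syk (adjusted p = 0.0242), Lyn (adjusted p = 0.0286) and Bank1 (adjusted p = 0.00684), where 6.61% of all genes were called lower. In batch 1 alone none of the 10 genes was called and 0% of all genes were called lower, although 5 of the 10 and 1832 of all 11064 genes tested there had an unadjusted p under 0.05. Blnk was -0.16 ± 0.19 SE in batch 1 and 0.42 ± 0.19 SE in batch 2, Pik3ap1 was -0.32 ± 0.24 SE and 0.38 ± 0.17 SE, and Blk was -0.39 ± 0.32 SE and 0.24 ± 0.24 SE. The interaction of group and batch, which tests these differences, called none of the 10 genes (edgeR; 1 had an unadjusted p under 0.05, Pik3ap1, p = 0.0298) and 0% of all genes (723 at an unadjusted p under 0.05). Between batches, with group as a term, none of the 10 genes was called (edgeR; none at an unadjusted p under 0.05), against 36.3% of all genes.

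The level of other markers moved with the groups. The summed level of 18 monocyte and macrophage markers ran from 205 to 2377 CPM (median 611) in sufficient and from 133 to 635 CPM (median 263) in deficient libraries, and 3 of the 18 were called lower (Itgam, Lyz2 and Cx3cr1). With this sum as a covariate, 5 of the 10 genes were still called lower, with log2 fold changes of -0.70 for Cd79a, -0.63 for Cd79b, -0.89 for Syk, -0.56 for Lyn and -2.70 for Bank1. The summed level of 15 proliferation markers ran from 1752 to 4315 CPM in sufficient and from 4544 to 7250 CPM in deficient libraries, with no overlap, and 13 of the 15 were called higher. With that sum as a covariate none of the 10 genes and none of all 11020 genes was called (edgeR; 1 and 1228 at an unadjusted p under 0.05). The log2 fold changes were then -0.37 ± 0.25 SE for Cd79a (adjusted p = 0.607), -0.17 ± 0.27 SE for Cd79b (adjusted p = 0.858), -0.45 ± 0.26 SE for Syk (adjusted p = 0.537), -0.096 ± 0.15 SE for Lyn (adjusted p = 0.853) and -1.96 ± 0.78 SE for Bank1 (adjusted p = 0.354). Group and proliferation cannot be told apart in this design.

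Levels between genes were compared per length, as counts per kilobase of merged exons and 1 M counts (RPKM). In sufficient lymphomas the receptor chains led, with a mean of 1019 ± 368 RPKM (SD, n = 12) for Cd79b and 879 ± 253 for Cd79a. Blk followed at 244 ± 60.6 RPKM, Plcg2 at 213 ± 39.1, Syk at 147 ± 50.1 and Lyn at 129 ± 37.1. Blnk at 95.6 ± 30.3 RPKM, Pik3ap1 at 81.5 ± 28.4, Btk at 64.5 ± 21.8 and Bank1 at 45.3 ± 40.4 RPKM were lowest. Neighbours in this order that differed by more than the spread of their difference over libraries were Cd79a and Blk (log2 difference 1.82 ± 0.56 SD, n = 12) and Plcg2 and Syk (0.58 ± 0.49). The other neighbours did not.

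In deficient lymphomas the order of the first 4 was the same, with Cd79b at 694 ± 195 RPKM (SD, n = 11), Cd79a at 587 ± 124, Blk at 244 ± 98.5 and Plcg2 at 223 ± 48.7. By mean RPKM, Syk moved from the fifth place to the eighth, at 78.2 ± 25.1. It stood behind Blnk at 102 ± 14.2, Lyn at 84.2 ± 17.4 and Pik3ap1 at 80.1 ± 14.9 RPKM. These last places were close: Pik3ap1 lay above Syk in 5 of 11 libraries (log2 difference 0.08 ± 0.58 SD). Lyn lay above Pik3ap1 in 6 of 11 (0.07 ± 0.37). The neighbours that differed by more than their spread were Cd79a and Blk (log2 difference 1.38 ± 0.66 SD, n = 11), Plcg2 and Blnk (1.10 ± 0.42), Blnk and Lyn (0.29 ± 0.27), and Btk and Bank1 (3.60 ± 1.97). Bank1 was last in both groups, at 6.33 ± 3.32 RPKM without T cells.

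**Figure D3:**
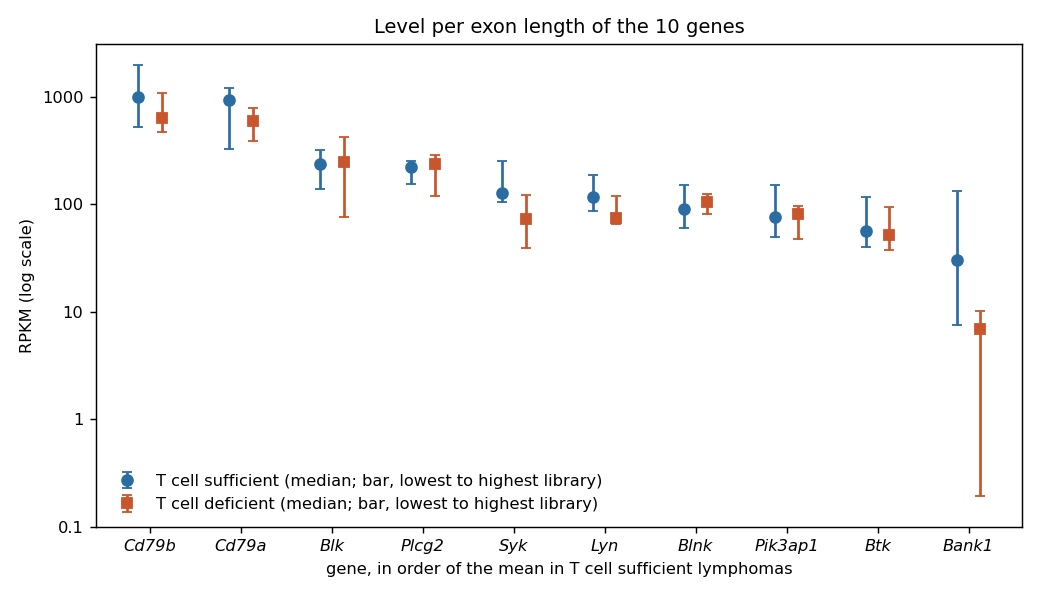
RPKM (log axis) of the 10 genes, ordered by their mean in T cell sufficient lymphomas; points are medians over 12 T cell sufficient (circles) and 11 T cell deficient (squares) libraries, and bars run from the lowest to the highest library. The receptor chains stand highest in both groups, and Bank1 lies lowest, with deficient libraries down to 0.195 RPKM.

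Across the 23 libraries the genes varied together in part. Pearson correlations of log2 CPM after removal of group and batch means were computed for all 45 pairs, with permutation p-values adjusted over the 45. They were positive for 34 pairs and negative for 11, and 5 positive and no negative pairs passed. The 2 kinases that fell formed the closest pair, Syk and Lyn (r = 0.83, rho = 0.83, permutation p = 3e-05, adjusted 0.00135; r = 0.76 without sufficient lymphomas 7 and 8). The 2 receptor chains followed (r = 0.74, rho = 0.74, permutation p = 7e-05, adjusted 0.00157; r = 0.65 without sufficient lymphoma 11 and deficient lymphoma 7). Cd79b was also correlated with Lyn (r = 0.66, rho = 0.63, permutation p = 0.00065, adjusted 0.00975), with Blk (r = 0.63, rho = 0.69, permutation p = 0.00217, adjusted 0.0212) and with Syk (r = 0.62, rho = 0.62, permutation p = 0.00236, adjusted 0.0212). Without sufficient lymphomas 7 and 11, the libraries farthest from the Cd79b median, these were 0.69, 0.57 and 0.69. The called pairs were positive within each batch and within each group, from 0.41 to 0.87. The number of pairs that passed depended on single libraries: it was 2 without sufficient lymphoma 7, 3 without deficient lymphoma 6, 8 without sufficient lymphoma 1 or deficient lymphomas 3 or 8, and 9 without sufficient lymphoma 3.

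Blnk and Pik3ap1, which lie on chromosome 19 with 277841 bases between them, had r = 0.62 and rho = 0.73, and the pair did not pass after adjustment (permutation p = 0.0154, adjusted 0.0693). The most negative pair was Bank1 and Pik3ap1 (r = -0.38, rho = -0.44, permutation p = 0.0793, adjusted 0.223).

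**Figure D4:**
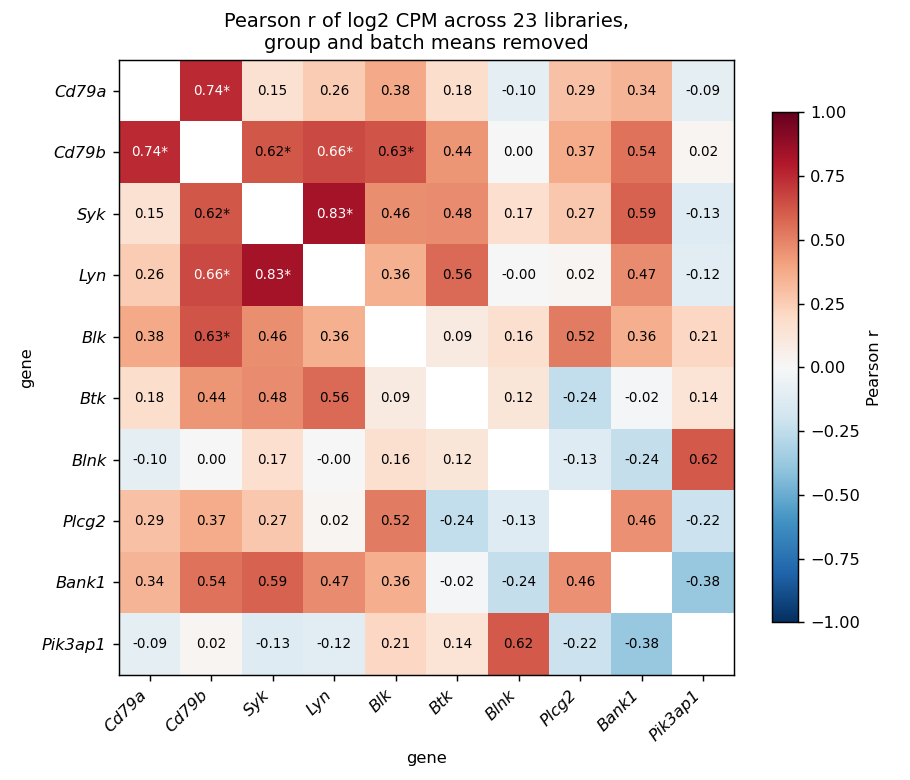
Pearson r of log2 CPM between the 10 genes over 23 libraries, with group and batch means removed (colour scale from -1 to 1; an asterisk marks an adjusted p under 0.05 over 45 pairs). Syk with Lyn (0.83) and Cd79a with Cd79b (0.74) are the closest pairs, and Pik3ap1 is near 0 or negative with most genes except Blnk (0.62).

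The genes most like each of the 10 were found by the same residual correlation, among genes whose log2 CPM averaged 3 or more, and are a description only. Syk and Lyn were each other's nearest gene. Cd79a was nearest to Cd37, a B cell tetraspanin (r = 0.87), Cd79b to Atp2a3, a calcium pump (r = 0.83), Blnk to Pmvk (r = 0.81), Plcg2 to Marcks (r = 0.85), Bank1 to Runx1, a transcription factor (r = 0.79), and Pik3ap1 to Zfp704 (r = 0.82). Blk was nearest to Fam167a (r = 0.87), its neighbour on chromosome 14, with 19356 bases between them. Btk lies on chromosome X. Of the 50 genes most like Btk, 45 (90.0%) were on chromosome X, which held 3.02% of the genes compared, and the median r of Btk was 0.64 with X-linked genes against -0.01 with genes elsewhere. For Pik3ap1, 15 of the 50 were on chromosome 19, which held 3.8% of the genes compared. For each of the other 8 genes 2 to 8 of the 50 were on its own chromosome. Except for Plcg2 (4% against 5.36%), this share was above that chromosome's share of the genes compared. It was 12% against 3.51% for Blk, 16% against 7.18% for Cd79a and 8% against 6.38% for Lyn. These differences in share were not tested.

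The rest of the pathway was read from 9 lists with 117 other genes, of which 113 were tested. Of these, 28 were lower, 6 higher and 79 not called, with a median log2 fold change of -0.20, against the 11.7% and 10.6% called among all genes. The 6 other Src family kinases differed among themselves: Fgr, a kinase of myeloid and some B cells, fell from a mean of 37.1 to 23.1 CPM (log2 fold change -0.72 ± 0.20 SE, adjusted p = 0.0130; 0.0629 without the 3 libraries with both Xist and Ddx3y), and 5 were not called, among them Lck, the T cell Src kinase (315 and 466 CPM, 0.70 ± 0.39 SE, adjusted p = 0.204) and Yes1 (1.52 ± 0.60 SE, adjusted p = 0.0704).

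Zap70, the Syk family kinase that T cells use, went the other way from Syk. The lowest, median and highest values of Zap70 were 0.0688, 0.951 and 129 CPM in sufficient libraries and 7.67, 93.0 and 754 CPM in deficient ones. In log2, deficient over sufficient, the change was 3.59 ± 1.23 SE (adjusted p = 0.0400), 1.90 in batch 1 and 5.44 in batch 2. The highest library was deficient lymphoma 6 and the highest sufficient library was sufficient lymphoma 5. The call was lost without any single one of 11 libraries (sufficient 3, 7, 8, 9, 10, 11 and 12, and deficient 4, 5, 8 and 11), with adjusted p-values up to 0.0843, and without the 3 libraries with both Xist and Ddx3y (adjusted p = 0.174), and with the macrophage marker sum as a covariate it was 2.04 (adjusted p = 0.364). The summed T and NK cell markers given above, 6 of the 14 listed, did not exceed 93.3 CPM in any deficient library. None of the 6 was called (edgeR, 2 at an unadjusted p under 0.05). Which cells the Zap70 reads came from was not tested.

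Coreceptors that strengthen the signal fell in 4 of 5 cases, with a list median of -0.79. Cd38, a surface enzyme that supports receptor signalling, fell from a mean of 403 to 42.6 CPM (log2 fold change -3.24 ± 0.45 SE, adjusted p = 0.000163). Ptprc, the CD45 phosphatase that primes Src family kinases, fell from 1162 to 703 CPM (-0.79 ± 0.14 SE, adjusted p = 0.000869). The list of inhibitory receptors and phosphatases also holds genes that are neither, such as Csk, Cblb and Sla. Of its 21 tested genes, 7 fell and none rose, with a median of -0.53. Among them the inhibitory receptors Pirb (log2 fold change -1.71 ± 0.31 SE), Ceacam1 (-1.48 ± 0.28 SE) and Fcgr2b (-1.19 ± 0.28 SE) had the smallest p-values. Both activating coreceptors and inhibitory receptors were thus among the genes that fell.

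Further from the receptor, 6 of 20 genes of phosphoinositide 3-kinase, Vav and Rac signalling fell and 1 rose, with a median of -0.23. The regulatory subunit Pik3r1 fell from a mean of 129 to 70.9 CPM (log2 fold change -0.89 ± 0.15 SE) and the GTPase Rac2 from 1867 to 899.6 CPM (-1.07 ± 0.20 SE). In the calcium and NFAT list 2 of 16 fell and 1 rose, with a median of 0.09, and the calcineurin subunit Ppp3ca had the smallest p (-0.84 ± 0.19 SE). In the protein kinase C and NF-kappa B list 4 of 14 fell and 1 rose, with a median of -0.14: Prkcb, the isoform that acts below Plcg2 in B cells, fell from 942 to 612 CPM (-0.64 ± 0.12 SE), and the NF-kappa B inhibitor Tnfaip3 rose from 76.0 to 125 CPM (0.71 ± 0.17 SE). In the Ras and MAPK list 3 of 14 fell and 1 rose, with a median of -0.02, and Rasal3, a Ras GTPase activating protein, had the smallest p (-0.83 ± 0.15 SE). Of 15 B cell transcription factors, Ets1 fell (-0.97 ± 0.30 SE, adjusted p = 0.0270), Tcf3 rose (0.35 ± 0.12 SE, adjusted p = 0.0343) and 13 were not called, with a median of 0.01. The call of Tcf3 was lost without any single one of 9 libraries (sufficient 8, 10, 11 and 12, and deficient 1, 2, 4, 5 and 10; adjusted p up to 0.0736). The call of Ets1 was lost without the 3 libraries with both Xist and Ddx3y (adjusted p = 0.0775).

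**Figure D5:**
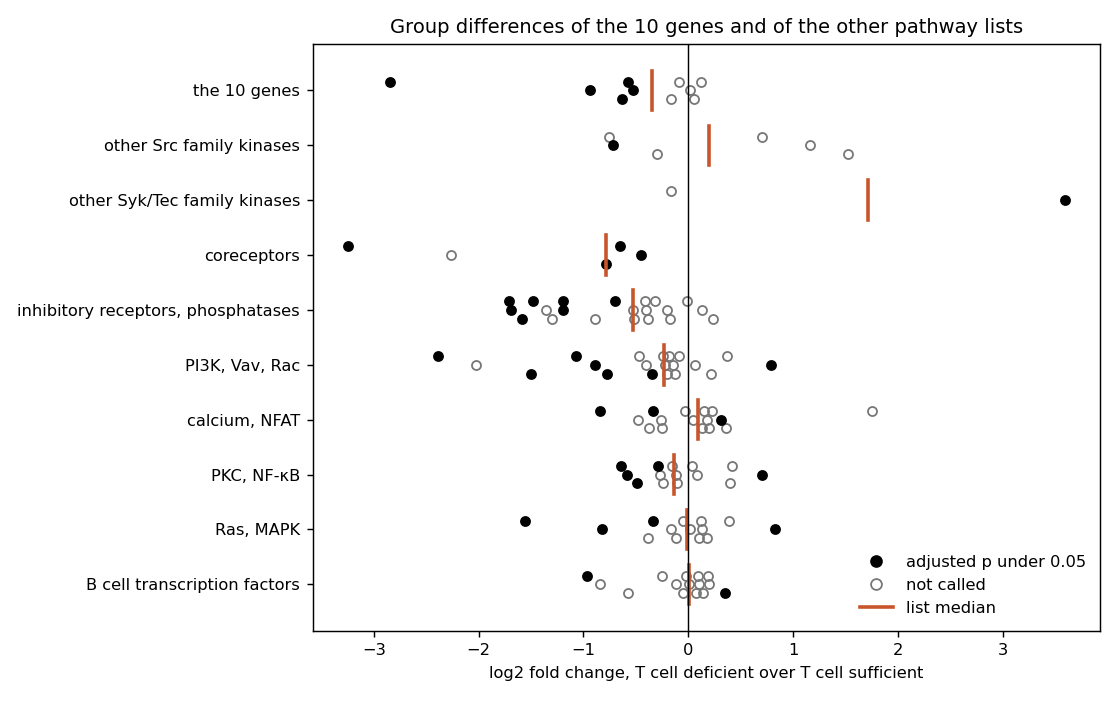
Log2 fold change of T cell deficient over T cell sufficient lymphomas (x axis) for the 10 genes and for 9 lists of other pathway genes (1 point per gene; filled, adjusted p under 0.05; bars, list medians). The lists of coreceptors (median -0.79) and inhibitory receptors and phosphatases (-0.53) lie furthest below 0, and the calcium, Ras and transcription factor lists centre near 0.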

How the data were processed

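RNA-seq counts of B lymphoma cells were used. The authors deposited raw counts per gene for 23 libraries, CPM (counts per 1 M counts of the listed genes) beside them, and a table of their own log2 fold changes and mean log2 levels with p-values, raw and adjusted. Each listed gene has over 1 CPM in at least 7 libraries. The builds GRCm38 and mm10 and the package limma come from the submitters' processing notes. For the aligner, counting tool, strand setting and annotation: not given in the sources used here. Reads of overlapping or near-identical genes therefore cannot be assigned with certainty. The repeat library of sufficient lymphoma 1 was not analysed here, the table does not say whether that column holds 1 library or both, and the column of sufficient lymphoma 4 was matched by its number alone.

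The deposited counts went into edgeR 4.0.16 (R 4.3.3) without change: filterByExpr, TMM scaling, then robust quasi-likelihood fits with terms for batch and group. A gene was called at a Benjamini-Hochberg adjusted p under 0.05. An SE is the absolute log2 fold change divided by the root of F. Log2 CPM used a prior count of 2. Ratios and correlations used 100000 permutations within batches (and groups, for correlations), and single batches every split. RPKM used merged exons of GENCODE M21 (GRCm38). The code was tested on simulated data. Pairs of libraries within groups differed beyond sampling noise (smallest chi-square per degree of freedom 31.0). Total counts of 7.58 to 30.6 M make 3 counts worth 0.098 to 0.396 CPM, counting error only.

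The 10 genes and the gene lists were chosen with earlier results of these data known. Named genes are the 10, up to 3 of each list with the smallest p, and each gene's nearest gene by correlation; 3 of these are not reported here. Ddx3y and Xist were read as a check of the libraries. Of the other lists, 5 of 8 plasma cell markers were tested and 1 was lower, and 5 of 8 erythroid and platelet markers were tested and none was called (edgeR; none at an unadjusted p under 0.05). Of 10 pan-B markers, 4 were lower, Cd79a and Cd79b among them, and 1 higher. The alternatives changed the scaling, the filter, the threshold or the tool (DESeq2 1.42.0, voom in limma 3.58.1), added covariates or a replicate block, thinned the counts, or used single batches or fewer libraries. The covariates of macrophage and proliferation markers, the fits without libraries with both Xist and Ddx3y or with an uncertain column, and the test of ratios between batches were added after the data were seen.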

Additional observations from a re-analysis of the deposited data

Results flagged for a closer look

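Among the libraries of 1 group in 1 batch, 1 value of the 40 groups checked stood apart by Dixon's criterion on a log scale. It was Syk in the sufficient lymphomas of batch 1, where sufficient lymphoma 7 held 2074 CPM and the next highest library 1339 CPM. Chance alone sets apart about 1 in 20 such groups. The same library had the highest Cd79b, Blk and Btk of all sufficient libraries, and Syk was still called lower in deficient lymphomas without it (edgeR adjusted p at most 0.00447 with any single library left out).

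The ratio of Blk to Lyn differed between groups by another amount in each batch. The log2 difference, deficient minus sufficient, was -0.10 in batch 1 (exact permutation p = 0.727) and 1.07 in batch 2 (exact permutation p = 0.00433). The change between batches was 1.17 (permutation of group labels within batches, two-sided, p = 0.015, adjusted over 3 ratios 0.045). In batch 1, deficient lymphomas 7 and 9 held the lowest Blk of all libraries, at 241 and 204 CPM. The ratio of Btk to Syk changed by 0.05 between batches (adjusted p = 0.938) and that of Cd79b to Cd79a by 0.02 (adjusted p = 0.938).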

How the results depend on the processing

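The 10 genes gave 5 lower calls under the other scalings (relative log expression, upper quartile), without the filter, and with DESeq2 or limma-voom, and 4 without scaling or in thinned counts, where Cd79b was lost. At an adjusted p under 0.01, 1027 genes and 3 of the 10 were called, with 17 of the other pathway genes lower and 3 higher. In batch 1 alone 0 genes, 0 of the 10 and 0 pathway genes in either direction were called, and log2 fold changes turned sign for Blnk (-0.16), Pik3ap1 (-0.32), Lck (-0.17) and the ratio of Blk to Lyn (-0.10). In batch 2 alone 1359 genes and 3 of the 10 were called, Blk (0.24) and Tec (0.16) turned, and the ratio of Blk to Lyn was 1.07 and passed. Without the batch term Blk was 0.0023 and Pik3ap1 -0.025.

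Lymphomas share only a number between groups: of 11 same-numbered pairs, 4 had deviations that correlated above 0.1. With the replicate number as a block, 1832 genes and 3 of the 10 were called (Cd79a, adjusted p = 0.122, and Cd79b, 0.137, were not), with 22 pathway genes lower and 5 higher. Under that block Pik3ap1 was -0.0056, and the ratios of Cd79b to Cd79a, Blk to Lyn and Btk to Syk were 0.01, 0.41 and 0.73.

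With Xist and Ddx3y as covariates 3 pathway genes were higher and Blnk was -0.013. With the macrophage sum 3 were higher. With the proliferation sum 0 genes, 0 of the 10 and 0 pathway genes in either direction were called, and Blk was 0.14, Btk 0.35, Plcg2 -0.17, Pik3ap1 -0.026 and Yes1 -0.000202. Without the 3 libraries with both Xist and Ddx3y, 1470 genes were called, 3 pathway genes were higher and Plcg2 was -0.025. By Spearman's rho 8 pairs of the 10 genes passed.

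With 1 library left out at a time, 1945 to 2783 genes, 4 to 5 of the 10, and 24 to 30 lower and 3 to 9 higher pathway genes were called. The higher count moved by over 1.5 times without sufficient lymphomas 8, 11 or 12 or deficient lymphomas 4 or 5. Between 2 and 9 pairs passed. Blk ran from -0.18 to 0.037, Pik3ap1 from -0.043 to 0.11, Plcg2 from -0.0011 to 0.14, and the ratios of Blk to Lyn from 0.41 to 0.62, Btk to Syk from 0.61 to 0.83 and Cd79b to Cd79a from -0.029 to 0.067. The cause of these changes was not tested. In counts thinned to the smallest library total, 4 of the 10 were called and Cd79b was not (adjusted p = 0.0522).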
